A study of Mus musculus with 14 samples.

Results

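Gene expression was compared between stable lines of αTN4-1, a mouse lens epithelial cell line transformed by a viral T antigen, that were labelled for CREB with an altered DNA-binding domain and lines labelled for CREB with an intact basic leucine zipper (bZIP). The K lines were KCREB and S133A-KCREB, and the intact lines were WT-CREB and S133A-CREB. The comparison used the control libraries, 4 of the 14 in the series, and was matched on the S133 state. The first pair was KCREB against WT-CREB and the second was S133A-KCREB against S133A-CREB. Each line gave 1 control library and 1 library from cells that received 20 ng/mL TGFβ for 24 h without serum, and nothing in the labels says whether control cells also had their serum removed. Lines labelled R314A-CREB, S133A/R314A-CREB and Vector were used where stated. All lines, Vector included, grew under neomycin selection, and the labels do not say whether a line is 1 clone or a pool. The files held 40853 gene identifiers, of which 10560 had a mean TPM, the length-normalized share of transcripts, of at least 5 over the 4 control libraries. Of these, 5766 (54.6%) differed in the same direction in both pairs, and these are the genes described here. Among them, 2309 (21.9% of the 10560) were higher and 3457 (32.7%) were lower in both K lines.

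CREB is a transcription factor whose bZIP domain forms dimers and holds the DNA at cAMP response elements (CREs). Phosphorylation of its serine S133 by protein kinase A recruits the coactivators CBP and p300, and the S133A change removes that site. KCREB carries a change in the DNA-binding domain, so that it no longer binds CREs and draws partner proteins such as wild-type CREB into dimers that cannot bind either. R314A lies in the zipper and is known to disturb binding of the CRTC coactivators. In the lens epithelium, a single cell layer under the lens capsule, transcription factors such as Pax6 and Tfap2a maintain cell identity. TGFβ drives a shift towards contractile, matrix-producing cells.

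Creb1, the gene of the altered factor (chr1:64571963-64643707, GRCm39), was measured first. It had 25.8 and 34.0 TPM in the KCREB and S133A-KCREB control libraries, against 11.6 and 6.59 TPM in WT-CREB and S133A-CREB. Vector had 20.8 TPM, so both K lines stood above Vector and both intact lines, although labelled as overexpressing, stood below it. The K minus intact difference in log2(TPM + 1) was 1.65 ± 0.34 (SE; limma, adjusted p = 0.327) in control cells and 2.20 ± 0.37 (adjusted p = 0.290) with TGFβ. No source used here gives the construct sequences, and whether reads of a construct count towards Creb1 was not tested. Directions below are therefore between libraries labelled K and libraries labelled intact, and the level of the encoded proteins was not measured. Crem and Atf1, the close relatives of Creb1, differed less. Crem (chromosome 18) had 11.5 and 12.5 TPM in the K lines, against 7.73 and 6.24 TPM in the intact lines, and Atf1 (chromosome 15) had 63.7 and 67.6 TPM in the K lines, against 96.3 and 89.3 TPM in the intact lines.

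Between 12545 and 13081 genes reached 1 TPM per library, and the coverage that corresponds to 1 FPKM, a measure of relative depth, spanned 5.03 to 10.1 over the 14 libraries. Mitochondrially encoded genes held 8.61% and 8.39% of TPM in the K control libraries, against 10.8% and 6.28% in the intact ones. Of the lens epithelium markers, Pax6, Sox2, Six3 and Cryab were present in all 4 libraries and Foxe3 was listed at 0 in all 4. Cdh1 was at most 0.249 TPM, and Pitx3 had 5.21 TPM in KCREB, 0.0523 TPM in S133A-KCREB and 0 in both intact lines. The 10 lens markers summed to 2293 TPM in KCREB and 1086 TPM in S133A-KCREB, against 556 TPM in WT-CREB and 771 TPM in S133A-CREB. Cryab was the largest part of each sum, at 1498 and 733 TPM in the K lines and 310 and 485 TPM in the intact lines. The 15 markers of cornea and surface ectoderm summed to 303 and 838 TPM in the K lines, against 2301 and 1241 TPM in the intact lines, nearly all of it Aldh3a1, while Krt5 and 5 others were listed at 0 in all 4. The 15 leukocyte markers summed to 66.4 and 33.7 TPM in the K lines, against 27.5 and 98.1 TPM in the intact lines. Lyz2 was the largest part of each sum, at 62.4 and 27.3 TPM in the K lines and 17.4 and 68.1 TPM in the intact lines. Adgre1, Tyrobp and the C1q genes were listed at 0 in all 4. The 14 muscle markers summed to 13.5 and 118 TPM in the K lines, against 61.7 and 113 TPM in the intact lines. Tnnt2 was the largest part of each, and Myod1 and Myog were listed at 0 in all 4. The part of these markers in the results was not tested, and in such bulk RNA fewer cells of a type and less RNA per cell cannot be told apart.

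Past a 2-fold difference in both pairs, 65 genes (0.616% of the 10560) were higher and 182 (1.72%) were lower in the K lines, together 247 (2.34%). Past 4-fold in both pairs there were 9 higher and 47 lower. The pairs differed from each other: KCREB against WT-CREB had 674 genes past 2-fold higher and 587 lower, and S133A-KCREB against S133A-CREB had 190 higher and 583 lower. Another 111 genes were past 2-fold in both pairs in opposite directions. The excess of lower genes depended on the scaling, because 3007 genes were higher and 2725 lower in both pairs after median-of-ratios scaling, and 2929 and 2753 after quantile normalization. The 2-fold genes kept an excess of lower ones under both, with 77 higher and 154 lower after median-of-ratios scaling and 89 higher and 147 lower after quantile normalization.

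**Figure D1:**
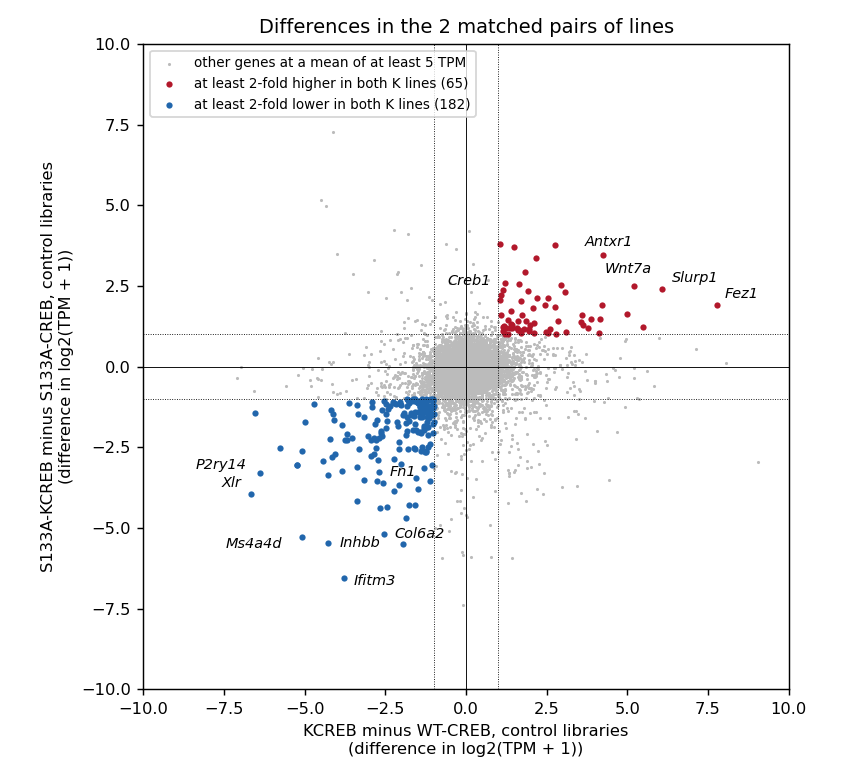
Each point is a gene with a mean of at least 5 TPM, placed by its difference in log2(TPM + 1) between KCREB and WT-CREB (x axis) and between S133A-KCREB and S133A-CREB (y axis) in control libraries, with dotted lines at 2-fold. The 65 red genes in the upper right and the 182 blue genes in the lower left were past 2-fold in both pairs, and grey points in the other corners include the 111 genes past 2-fold in opposite directions.

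With 1 library per line and treatment, the test had to take its spread from the lines. A limma fit over the 6 CREB lines with terms for the S133 state and for the zipper called none of 12927 genes in control cells at an adjusted p of 0.05, in either direction. Its lowest adjusted p was 0.170, while 1233 genes (9.54%) were under 0.05 before adjustment. The same fit on the TGFβ libraries called none, with 1435 genes (11.1%) under 0.05 before adjustment and a lowest adjusted p of 0.0729, for Inhbb. The TGFβ count rested on single intact libraries: without WT-CREB the fit called 144 genes and without S133A-CREB 86, in fits where the lone intact line is assumed to vary like the others. In control cells it called 8 without S133A-KCREB, 1 without KCREB and 1 without S133A-CREB. Gene values below are therefore levels and differences between these libraries, and no single gene passed the test with all lines in the fit.

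The genes with the largest differences in the K direction included cell-surface, neuronal and secreted products. Antxr1, a cell-surface receptor that binds collagen and anthrax toxin (chr6:87110835-87312757, GRCm39), had 19.5 TPM in KCREB and 11.9 TPM in S133A-KCREB, against 0.0776 TPM in WT-CREB and 0.158 TPM in S133A-CREB. Its pair differences were 4.25 and 3.47, and Vector, at 0.171 TPM, sat with the intact lines. Wnt7a, a secreted Wnt ligand, had 39.6 and 9.23 TPM in KCREB and S133A-KCREB, against 0.107 and 0.799 TPM in WT-CREB and S133A-CREB. For Wnt7a the Vector library, at 27.6 TPM, sat with the K lines. Fez1, a kinesin adaptor of axonal transport, showed the widest gap between the pairs, with 456 and 88.9 TPM in the K lines and 1.07 and 23 TPM in the intact lines. Slurp1, a secreted Ly6-family protein of epithelia, had 131 and 19.9 TPM in the K lines, against 0.946 and 2.92 TPM in the intact lines.

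More even between the pairs was St8sia2, an enzyme that adds polysialic acid to NCAM. It had 87.3 and 136 TPM in KCREB and S133A-KCREB, against 19.9 and 37.7 TPM in WT-CREB and S133A-CREB, a K minus intact difference of 1.95 ± 0.18 (SE; limma, adjusted p = 0.170). Nppb, which encodes B-type natriuretic peptide, had 40.4 and 45.5 TPM in the K lines, against 3.98 and 8.44 TPM in the intact lines (2.68 ± 0.28, adjusted p = 0.220). Ank3, which encodes the membrane anchor ankyrin-G, had 29.1 and 20.4 TPM in the K lines, against 4.51 and 4.75 TPM in the intact lines. Add2, the membrane-skeleton protein β-adducin, had 11.9 and 35.1 TPM in the K lines, against 2.62 and 3.68 TPM in the intact lines. For all 4 of these genes both K libraries lay above both intact libraries, a description of the values that chose them. The other genes named at the upper end were Tslrn1, Ptprtos, Mir703 and Usp17la. Ptprtos is antisense to Ptprt and the sources used here do not give the strandedness of the libraries, Mir703 is a microRNA locus read by an mRNA library, and Usp17la belongs to a family of near-identical copies, so their values are uncertain.

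Among lower genes the named differences reached further from 0. Ms4a4d, a membrane-spanning protein of the MS4A family, had 6.85 and 4.60 TPM in KCREB and S133A-KCREB, against 267 and 217 TPM in WT-CREB and S133A-CREB, a K minus intact difference of -5.19 ± 0.85. Inhbb, the subunit of activin B (chr1:119343193-119349978, GRCm39), had 1.67 and 0.642 TPM in the K lines, against 50.5 and 71.9 TPM in the intact lines. Its difference of -4.87 ± 0.37 (SE; limma, adjusted p = 0.170) came with 5.51 TPM in Vector and 13.6 and 9.94 TPM in the R314A-CREB and S133A/R314A-CREB lines. Xlr, of an X-linked multigene family, was listed at 0 in KCREB and had 9.53 TPM in S133A-KCREB, against 101 and 161 TPM in the intact lines and 103 TPM in Vector. Gpc1, the cell-surface heparan sulfate proteoglycan glypican-1, had 3.88 and 1.84 TPM in the K lines, against 183 TPM in WT-CREB and 22.4 TPM in S133A-CREB.

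Receptors, enzymes and regulators made up most of the rest of this group. P2ry14, a receptor for UDP-sugars, had 0.203 and 6.94 TPM in the K lines, against 98.8 and 77.1 TPM in the intact lines. Tnfrsf9, the costimulatory receptor 4-1BB, had 0.641 and 1.15 TPM in the K lines, against 13.6 and 23.5 TPM in the intact lines (-3.33 ± 0.28, adjusted p = 0.170). Vector was low for both receptors, at 0.673 and 0.403 TPM in control cells. Adamts4, a protease that cleaves aggrecan, had 2.68 and 12.8 TPM in the K lines, against 137 and 112 TPM in the intact lines. Adh7, a retinol and alcohol dehydrogenase, had 3.74 and 8.96 TPM in the K lines, against 90.6 and 100.03 TPM in the intact lines. Id3, an inhibitor of basic helix-loop-helix factors and a BMP target, had 0.165 TPM in KCREB and was listed at 0 in S133A-KCREB, against 15.7 and 8.49 TPM in the intact lines. Ncf4, a subunit of the phagocyte NADPH oxidase, had 0.213 and 2.15 TPM in the K lines, against 25.3 and 23.1 TPM in the intact lines. In each of the genes of this paragraph both K libraries lay below both intact libraries, a description of the values that chose them.

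**Figure D2:**
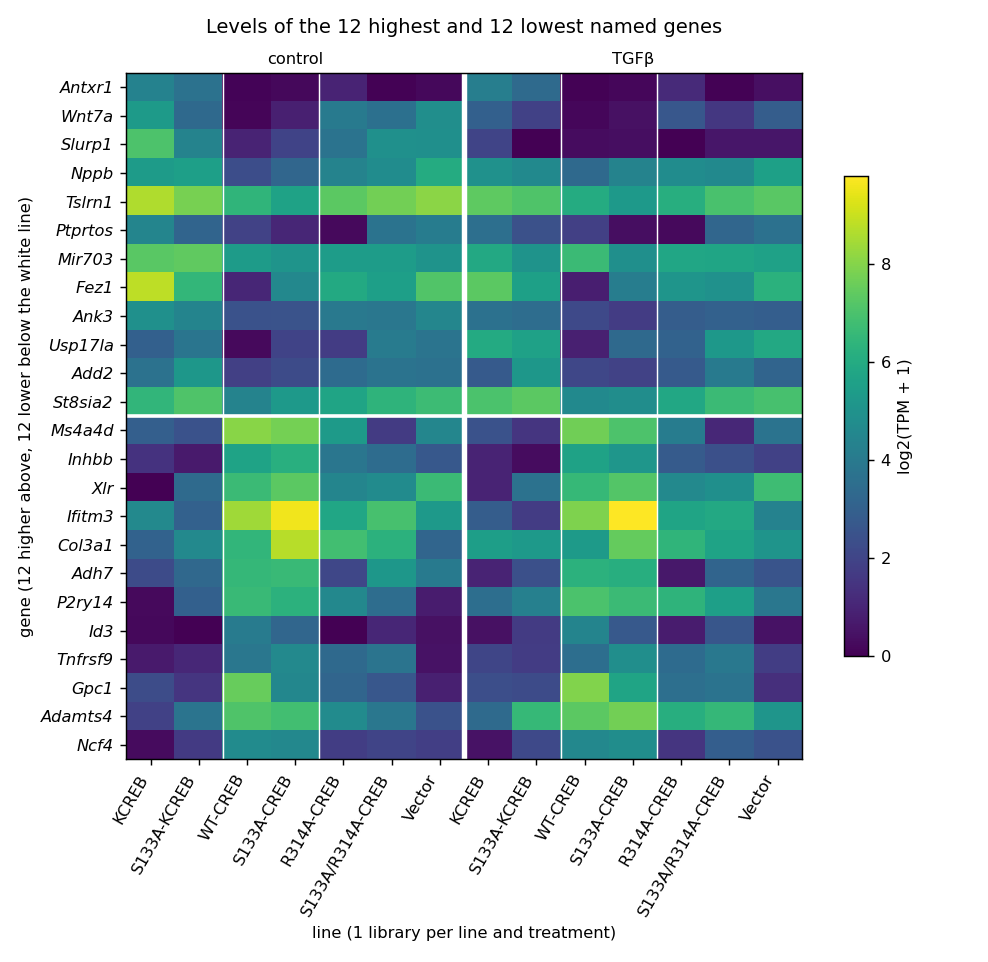
Colour gives log2(TPM + 1) of the 12 named genes with the largest higher differences (above the white line) and the 12 with the largest lower differences (below it), in the 7 lines without and with TGFβ, 1 library each. The K lines stand apart from WT-CREB and S133A-CREB in both blocks for most genes, while Vector resembles the K lines for genes such as Wnt7a and Tnfrsf9 and the intact lines for Antxr1 and Xlr.

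The TGFβ libraries came from the same lines but took no part in choosing the genes. Of the 65 higher genes, 29 were again past 2-fold in both TGFβ pairs, where 0.483% of all genes were. With 30 more that kept their direction only, 59 (90.8%) were higher in both pairs, where 28.8% of all genes were. Of the 182 lower genes, 93 were again past 2-fold in both, against 1.39% of all genes. With 77 more that kept their direction only, 170 (93.4%) were lower in both, against 29.1% of all genes. In the limma fit on the TGFβ libraries, 46 of the 65 were higher and 140 of the 182 were lower at an unadjusted p under 0.05, where 4.65% and 6.45% of the 12927 genes were. The median difference of the higher genes was 1.88 in control cells and 1.52 with TGFβ, and that of the lower genes was -1.81 and -1.54, beside medians of -0.05 and 0.00 over all genes. Since the genes were chosen by their control values, a smaller difference in other libraries is built into the choice. A limma test of whether the difference changed with TGFβ called none of 12927 genes, with 1392 (10.8%) under 0.05 before adjustment. Of all genes with 1 direction in control cells, including small differences, 1590 of 2309 higher ones (68.9%) and 2101 of 3457 lower ones (60.8%) kept it in both TGFβ pairs.

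Inhbb and Ms4a4d were at low levels in the K lines with TGFβ too. Inhbb had 0.964 and 0.240 TPM in the K lines with TGFβ, against 48.8 and 34.5 TPM in the intact lines (-4.75 ± 0.25, adjusted p = 0.0729). Ms4a4d had 4.57 and 1.85 TPM with TGFβ in the K lines, against 203 and 133.1 TPM in the intact lines. St8sia2 had 129 and 160 TPM in the K lines with TGFβ, against 24.4 and 27.3 TPM in the intact lines (2.43 ± 0.21, adjusted p = 0.140). Antxr1 had 17.3 and 9.40 TPM in the K lines, against 0.0526 and 0.127 TPM in the intact lines. These 4 genes remained past 2-fold in both pairs, as did Wnt7a, Fez1, Ank3, Tslrn1, Usp17la and Ptprtos of the higher genes, and Xlr, Ifitm3, Adh7, P2ry14, Id3, Tnfrsf9, Gpc1, Adamts4 and Ncf4 of the lower ones.

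Other genes did not keep their difference in both pairs with TGFβ, or kept a smaller one. Slurp1 was low everywhere with TGFβ, at 3.02 TPM in KCREB and listed at 0 in S133A-KCREB, against 0.240 and 0.293 TPM in the intact lines. Col3a1, a fibrillar collagen of soft tissue, had 7.55 and 23.2 TPM in the K control libraries, against 87.5 and 431 TPM in the intact ones. With TGFβ it had 44.0 and 38.8 TPM in the K lines, against 39.3 and 179 TPM in the intact lines, so the direction held in 1 pair only. Lmcd1, a LIM-domain cofactor, had 4.45 and 16.8 TPM in the K control libraries, against 13.8 and 51.2 TPM in the intact ones, and with TGFβ it had 67.5 and 42.9 TPM in the K lines, against 19.2 and 47.3 TPM in the intact lines. Pdzrn3, a ubiquitin ligase, had 26.1 and 78.1 TPM in the K control libraries, against 108 and 180 TPM in the intact lines, and with TGFβ it had 170 and 241 TPM in the K lines, against 173 and 204 TPM in the intact lines. Vegfc, the lymphatic growth factor, had differences of -1.27 and -1.06 in the control pairs and -0.27 in each TGFβ pair. Mir703, Ndufs5, Pet100, Septin4 and Tmem171 were the higher genes with the least difference left, with mean differences of -0.32, -0.47, 0.07, 0.29 and 0.39 with TGFβ.

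**Figure D3:**
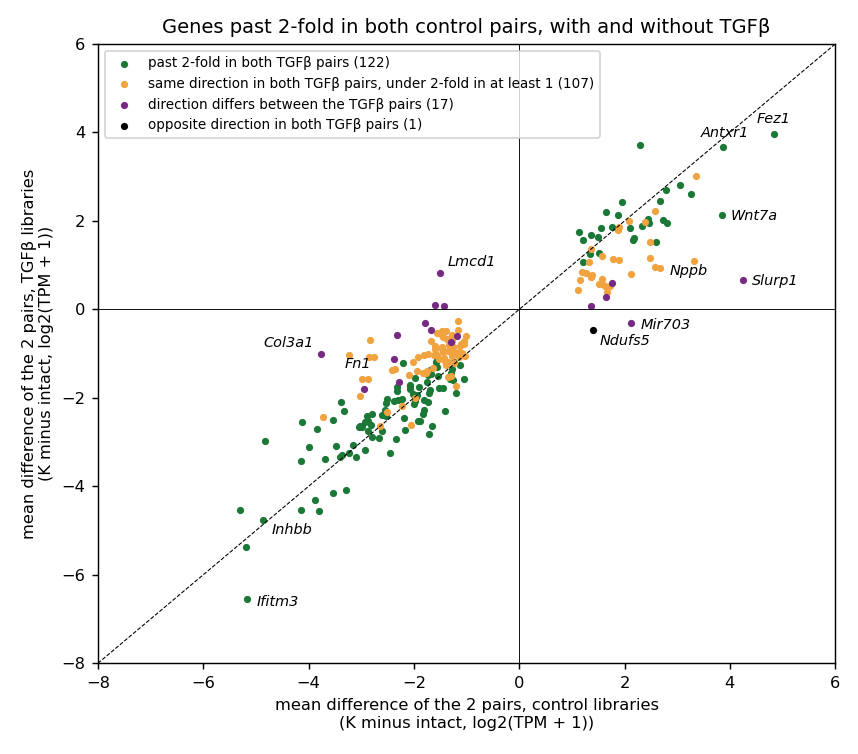
Each of the 247 genes past 2-fold in both control pairs is placed by its mean K minus intact difference in log2(TPM + 1) in control libraries (x axis) and in TGFβ libraries (y axis), with the line of equal differences dashed. The 122 green genes were past 2-fold in both TGFβ pairs, the 107 orange genes kept the direction, 17 purple genes had it in 1 TGFβ pair only, and 1 gene, Ndufs5, was opposite in both.

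Genes that build and maintain the lens epithelium were mostly higher in the K lines in control cells. Of 14 listed regulators at 5 TPM, 9 were higher and 3 lower in both pairs, beside 21.9% and 32.7% of all genes, with a median difference of 0.79 in control cells (-0.05 over all genes). With TGFβ 5 were higher and 5 lower in both pairs, beside 28.8% and 29.1% of all genes, and the median was 0.47. The pairs were unequal, with a median of 1.28 in the KCREB pair and 0.14 in the S133A-KCREB pair, and of 0.97 and -0.06 with TGFβ. Tfap2a, the factor AP-2α of surface ectoderm and lens, had 117 and 60.7 TPM in KCREB and S133A-KCREB, against 19.4 and 29.2 TPM in WT-CREB and S133A-CREB. Prox1, the factor of lens fibre differentiation, was listed with the lens fibre genes and not among the 14 regulators. It had 66.3 and 13.8 TPM in the K lines, against 2.75 and 4.37 TPM in the intact lines, and stayed past 2-fold with TGFβ. Pax6 had 328 and 110 TPM in the K lines, against 63.9 and 75.8 TPM in the intact lines. Jag1, a Notch ligand needed by the lens, had 85.9 and 83.3 TPM in the K lines, against 29.4 and 56.3 TPM in the intact lines, and with TGFβ it had 311 and 231 TPM in the K lines, against 87.2 and 71.8 TPM in the intact lines (1.75 ± 0.14, adjusted p = 0.140).

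Exceptions in this group were lower. Pdgfra, a receptor of lens growth factors, had 16.7 and 8.09 TPM in the K lines, against 26.5 and 27.5 TPM in the intact lines. Notch2, on chromosome 3, had 37.1 and 32.6 TPM in the K lines, against 59.8 and 63.8 TPM in the intact lines. Of the crystallins, the small heat-shock protein gene Cryab had 1498 and 733 TPM in the K lines, against 310 and 485 TPM in the intact lines. Cryaa was lower in both pairs by a small margin, at 23.2 and 3.23 TPM in the K lines, against 27.4 and 4.73 TPM in the intact lines. It was high in KCREB and WT-CREB only, since R314A-CREB, at 3.66 TPM, and Vector, at 4.08 TPM, lay with the S133A lines.

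Textbook targets of cAMP and CREB did not stand together. Of 26 at 5 TPM, 5 were higher and 8 lower in both pairs, shares near the 21.9% and 32.7% of all genes, and the median difference was -0.10 in control cells and 0.17 with TGFβ. The one past 2-fold was Sik1, a kinase that phosphorylates the CRTC coactivators (chr17:32063222-32074808, GRCm39). It had 7.52 and 4.91 TPM in KCREB and S133A-KCREB, against 22.9 and 23.1 TPM in WT-CREB and S133A-CREB (-1.76 ± 0.29; limma, adjusted p = 0.263). With TGFβ it had 6.84 and 4.45 TPM in the K lines, against 18.8 and 20.1 TPM in the intact lines, and the R314A lines and Vector lay near the K lines in control cells, at 7.84, 9.0 and 9.73 TPM. Bdnf, a neurotrophin with a CREB-dependent promoter, stood the other way, at 22.7 and 18.8 TPM in the K lines, against 13.2 and 9.97 TPM in the intact lines. Inhba, which encodes the activin A subunit, had 10.8 and 28.2 TPM in the K lines, against 6.16 and 12 TPM in the intact lines, so the 2 activin subunit genes differed in opposite directions in control cells. With TGFβ Inhba had 5.78 and 31.4 TPM in the K lines, against 17.4 and 21.5 TPM in the intact lines, and held its direction in the S133A-KCREB pair only.

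Among the coactivators and the PKA pathway, several of the lower genes lay on 1 chromosome. Crtc2, a CREB coactivator, had 44.1 and 29.7 TPM in the K lines, against 81.8 and 60.2 TPM in the intact lines (-0.94 ± 0.18, adjusted p = 0.302). Prkacb, a catalytic subunit of PKA, had 91.3 and 58.6 TPM in the K lines, against 128 and 100.3 TPM in the intact lines, and Pkia, a PKA inhibitor, had 27.5 TPM in each K line, against 53.9 and 38.0 TPM in the intact lines. Pde7a, a cAMP phosphodiesterase, had 28.5 and 37.6 TPM in the K lines, against 159 and 65.3 TPM in the intact lines. These 4 are on chromosome 3, whose genes were lower as a whole (given below), while the lower gene Atf1 is on chromosome 15. Akap12, a scaffold of PKA on chromosome 10, was higher, at 96.5 and 115 TPM in the K lines, against 53.2 and 79.8 TPM in the intact lines. Of the 18 genes of the PKA list, 4 were higher and 7 lower in both pairs, shares near the 21.9% and 32.7% of all genes. The pair medians were 0.03 and -0.33.

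The palindromic CRE, read as TGACGTCA on either strand from 250 bases before to 50 bases after the gene start, was rare in the promoters of these genes. RefSeq promoters (GRCm38.p6) matched 47 of the 65 higher genes and 123 of the 182 lower genes. It stood in 1 of the 47 (2.13%, Pet100) and in 2 of the 123 (1.63%, Lmcd1 and Slc38a6), against 309 (3.68%) of 8395 promoters of all genes at 5 TPM. The shorter element TGACG or CGTCA, which any full CRE contains, stood in 27.7% and 22.8%, against 37.2%. The promoters of Pet100 (chr8:3621301-3621600, plus strand) and Lmcd1 (chr6:112273508-112273807, plus strand) are shown because they hold the full element, in capitals. Both genes are among those named for the least difference left with TGFβ. Slc38a6, whose promoter also holds the element and is not shown, was not among them.
Pet100: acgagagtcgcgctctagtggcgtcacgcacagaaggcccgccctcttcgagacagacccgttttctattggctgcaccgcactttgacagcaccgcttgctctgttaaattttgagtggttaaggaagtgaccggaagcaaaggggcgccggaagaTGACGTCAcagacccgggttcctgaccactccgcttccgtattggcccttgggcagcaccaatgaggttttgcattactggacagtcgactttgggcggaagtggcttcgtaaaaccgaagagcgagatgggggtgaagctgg
Lmcd1: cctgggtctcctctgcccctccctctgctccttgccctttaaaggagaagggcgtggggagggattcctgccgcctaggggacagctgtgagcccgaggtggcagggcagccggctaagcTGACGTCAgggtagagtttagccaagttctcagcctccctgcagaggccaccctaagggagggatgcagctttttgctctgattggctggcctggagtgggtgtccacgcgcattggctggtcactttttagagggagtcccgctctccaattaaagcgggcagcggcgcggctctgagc
In Pet100 the element starts at base -93 and in Lmcd1 at base -130 relative to the gene start. A match is a description of the letters and was not tested as a binding site.

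Some matrix genes were far lower in the K lines. Of 28 mesenchyme and matrix genes at 5 TPM, 12 were lower and 4 higher in both pairs, beside 32.7% and 21.9% of all genes. Past 2-fold in both pairs 9 were lower and 1 was higher, beside 1.72% and 0.616% of all genes. The pairs were unequal, with a median of -0.23 in the KCREB pair, where 12 of the 28 were higher, and -1.20 in the S133A-KCREB pair. The median of both pairs was -0.58 in control cells and -0.56 with TGFβ. The list overlaps that of SMAD targets in Fn1, which encodes fibronectin. Fn1 had 72.4 and 114 TPM in KCREB and S133A-KCREB, against 473 and 1105 TPM in WT-CREB and S133A-CREB (-2.98 ± 0.27; limma, adjusted p = 0.170), and 68.4 TPM in Vector. With TGFβ it had 292 and 1058 TPM in the K lines, against 1379 and 1970.4 TPM in the intact lines, so the direction held and 1 pair fell short of 2-fold. Col6a2, a chain of collagen VI, had 14.2 and 2.92 TPM in the K lines, against 87.8 and 143 TPM in the intact lines, and with TGFβ 3.47 and 0.531 TPM in the K lines, against 70.8 and 36.9 TPM in the intact lines (-4.32 ± 0.37, adjusted p = 0.140). Col1a2, a chain of collagen I, had 0.0854 and 2.32 TPM in the K lines, against 58.4 and 18.0 TPM in the intact lines, with 39.0 TPM in R314A-CREB and 0.751 TPM in S133A/R314A-CREB.

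Components of the lens capsule and other basement membranes differed between the pairs. In the S133A-KCREB pair 23 of 25 were lower, with a median of -0.60, and in the KCREB pair 11 were lower, with a median of 0.10. In both pairs 11 were lower and 2 higher, beside 32.7% and 21.9% of all genes. Col18a1, the source of endostatin, had 0.911 and 1.75 TPM in the K lines, against 23.5 and 12.3 TPM in the intact lines. Lamb3, a chain of laminin-332, had 3.69 and 6.85 TPM in the K lines, against 17.2 and 21.4 TPM in the intact lines, and Lama5, the laminin α5 chain, had 24.7 and 34.5 TPM in the K lines, against 66.2 and 91.9 TPM in the intact lines. Gpc1, Col18a1 and Lamb3 remained past 2-fold in both TGFβ pairs, and Lama5 kept its direction.

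Genes that TGFβ induces through SMAD factors were also lower at baseline. Of 23 at 5 TPM, 13 were lower and 1 higher in both control pairs, beside 32.7% and 21.9% of all genes, with a median of -0.59. With TGFβ the median was -0.14, with 7 lower and 4 higher in both pairs, beside 29.1% and 28.8% of all genes. None of the 3 past 2-fold in control cells remained so. Klf10, a zinc-finger factor induced early by TGFβ, had 4.79 and 11.9 TPM in the K control libraries, against 42.7 and 26.8 TPM in the intact ones. Pmepa1, an inhibitor in the TGFβ pathway, had 36 and 148 TPM in the K lines, against 256 and 254 TPM in the intact lines in control cells, and 527 and 507 TPM in the K lines, against 474 and 687 TPM in the intact lines, with TGFβ. Itgb5, an integrin subunit, had 385 and 570 TPM in the K lines, against 805 and 1315 TPM in the intact lines in control cells.

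Most cytokine and NF-κB genes were lower in both control pairs. Of 20 at 5 TPM, 14 were lower and 1 higher, beside 32.7% and 21.9% of all genes. With TGFβ 9 were lower and 6 higher in both pairs, beside 29.1% and 28.8% of all genes. The list median was -0.70 in control cells and -0.39 with TGFβ. Lif, a cytokine of the IL-6 family, had 0.857 and 0.439 TPM in KCREB and S133A-KCREB, against 13.2 and 8.75 TPM in WT-CREB and S133A-CREB (-2.85 ± 0.31; limma, adjusted p = 0.220). Vcam1, a leukocyte adhesion molecule on chromosome 3, had 30.1 and 18.1 TPM in the K lines, against 215 and 110 TPM in the intact lines. Cx3cl1, a membrane-bound chemokine, had 59.3 and 74.5 TPM in the K lines, against 120 and 206 TPM in the intact lines. Cxcl10, a chemokine induced by interferon, had 4.26 and 2.04 TPM in the K lines, against 30.5 and 36.4 TPM in the intact lines (-3.10 ± 0.35, adjusted p = 0.224). With TGFβ, Vcam1, Cx3cl1 and Cxcl10 remained past 2-fold in both pairs. Lif kept its direction only, at 5.98 and 18.9 TPM in the K lines with TGFβ, against 21.7 and 26.5 TPM in the intact lines.

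The interferon response differed in opposite directions in the 2 pairs. Each S133 state is 1 pair of lines, so its part cannot be told apart from a property of a single line. In the KCREB pair 26 of 35 genes were higher, with a median of 0.63, and in the S133A-KCREB pair 34 of 35 were lower, with a median of -2.05. The pair medians with TGFβ were 0.37 and -3.35. Thus 9 were lower and 1 higher in both pairs, a share of 9 in 35 that is not above the 32.7% of all genes. Those past 2-fold in both were Gbp2, Gbp3, Rsad2 and Oas3. Gbp2, a guanylate-binding GTPase on chromosome 3, had 14.8 and 45.9 TPM in the K lines, against 97.0 and 193 TPM in the intact lines, and Vector, at 94.9 TPM, sat with WT-CREB. Ifitm3, which blocks the entry of viruses into cells and was named for its size rather than through the list, had 23.7 and 7.28 TPM in the K lines, against 339 and 774 TPM in the intact lines (chr7:140589503-140590657, GRCm39). With TGFβ it had 6.36 and 2.35 TPM in the K lines, against 239 and 893 TPM in the intact lines (-6.54 ± 0.69, adjusted p = 0.185). Antigen processing by MHC class I is an interferon-responsive pathway. Of its 20 listed genes at 5 TPM, 10 were lower and 0 higher in both pairs, beside 32.7% and 21.9% of all genes. The pairs were unequal, with 11 lower and 9 higher in the KCREB pair and 19 lower and 1 higher in the S133A-KCREB pair. The pair medians were -0.11 and -1.13. Psme2, an activator of the immunoproteasome, had 194 and 319 TPM in the K lines, against 432 and 551 TPM in the intact lines, and Nlrc5, a transactivator of MHC class I genes, had 6.59 and 9.38 TPM in the K lines, against 17.5 and 23.5 TPM in the intact lines. Gbp and Ifitm genes have close relatives, and the sources used here do not say how reads were shared among them.

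An interferon-stimulated response element, read as GAAA, any 2 bases and GAAA on either strand, stood in 16 of 123 promoters of the lower genes (13%), in 1 of 47 of the higher genes (2.13%) and in 3.79% of the 8395. The AP-1 site, TGANTCA, stood in 15.4% of the lower and 12.8% of the higher genes, against 5.96%. Genes such as Apol9a and Apol9b share promoter sequence, so the matches are not independent. The promoters of Ifitm3 (chr7:141010695-141010994, minus strand) and Cxcl10 (chr5:92348840-92349139, minus strand), both on GRCm38.p6 and from RefSeq, are shown because they hold the element, again in capitals, and belong to interferon-induced genes described above.
Ifitm3: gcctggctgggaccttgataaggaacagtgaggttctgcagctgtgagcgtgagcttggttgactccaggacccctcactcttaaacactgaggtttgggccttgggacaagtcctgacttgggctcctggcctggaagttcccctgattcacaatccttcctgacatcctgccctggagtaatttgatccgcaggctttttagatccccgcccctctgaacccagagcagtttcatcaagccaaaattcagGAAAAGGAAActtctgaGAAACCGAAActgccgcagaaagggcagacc
Cxcl10: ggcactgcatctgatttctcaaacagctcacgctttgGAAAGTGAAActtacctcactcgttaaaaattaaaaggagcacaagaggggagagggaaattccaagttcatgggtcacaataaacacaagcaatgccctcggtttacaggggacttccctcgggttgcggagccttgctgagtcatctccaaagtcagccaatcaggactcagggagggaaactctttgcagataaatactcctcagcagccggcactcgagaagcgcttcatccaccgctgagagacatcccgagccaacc
Ifitm3 holds 2 matches, the first from base 2 after the gene start, and Cxcl10 holds 1, from base -213.

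Targets of p53 also differed in opposite directions in the S133 states. In the KCREB pair 19 of 24 were lower, with a median of -0.41, and in the S133A-KCREB pair 17 were higher, with a median of 0.63. Only 3 were higher and 5 lower in both pairs, beside 21.9% and 32.7% of all genes. Fas, a death receptor, had 42.9 and 38.2 TPM in the K lines, against 115 and 70.3 TPM in the intact lines, and Ei24 had 93.0 and 118 TPM in the K lines, against 66.4 and 76.3 TPM in the intact lines.

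**Figure D4:**
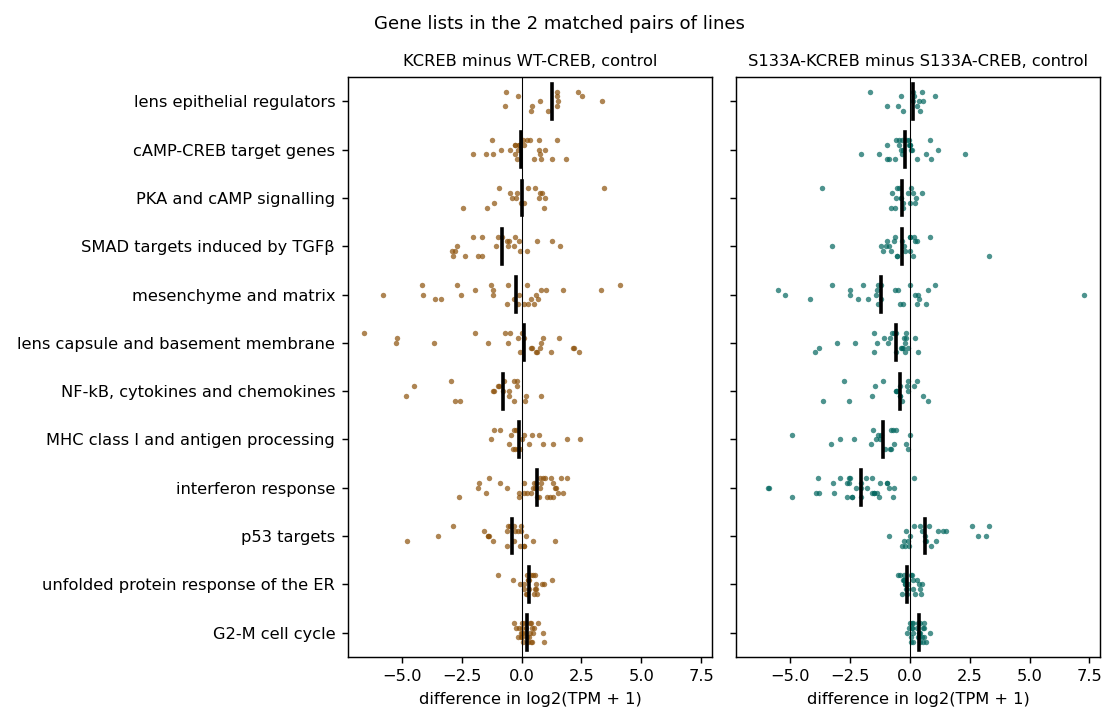
Each point is a gene at a mean of at least 5 TPM in the named list, placed by its difference in log2(TPM + 1) in the KCREB pair (left) and the S133A-KCREB pair (right) of control libraries, with the list median as a black bar. The interferon medians of 0.63 and -2.05 lie on opposite sides of 0, as do the p53 medians of -0.41 and 0.63, while cytokine and SMAD target medians are below 0 in both pairs.

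Cell cycle genes of G2 and mitosis were slightly higher in the K lines. Of 28 at 5 TPM, 19 were higher and 1 lower in both pairs, beside 21.9% and 32.7% of all genes, with a median of 0.26 in control cells and with TGFβ, and with medians between 0.25 and 0.35 under the other pseudocounts and scalings. Prc1, which bundles midzone microtubules, had 212 and 263 TPM in the K lines, against 148 and 181 TPM in the intact lines, and with TGFβ 246 and 302 TPM in the K lines, against 148 and 193 TPM in the intact lines. Ttk, a spindle checkpoint kinase, had 102 and 136 TPM in the K lines, against 73.1 and 74.8 TPM in the intact lines, and Ccnb1, cyclin B1, had 154 and 212 TPM in the K lines, against 118 and 159 TPM in the intact lines. Replication genes did not follow, with 5 of 30 higher and 11 lower. Their exception was Rrm2, the small subunit of ribonucleotide reductase, at 221 and 210 TPM in the K lines, against 96.4 and 87.8 TPM in the intact lines, and it remained past 2-fold with TGFβ. Ccnd1, cyclin D1, had 934 and 1311 TPM in the K control libraries, against 422 and 560 TPM in the intact lines, and kept its direction with TGFβ.

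The response of the endoplasmic reticulum to unfolded proteins leaned the same way by small amounts. Of 23 genes, 10 were higher and 3 lower in both pairs, beside 21.9% and 32.7% of all genes. The median was 0.21 in control cells and 0.45 with TGFβ, though the S133A-KCREB pair had a median of -0.12 in control cells. Xbp1, the factor spliced by IRE1, had 95.0 and 103 TPM in the K lines, against 62.9 and 72.7 TPM in the intact lines, and with TGFβ 239 and 180 TPM in the K lines, against 85.1 and 115 TPM in the intact lines. Manf, an endoplasmic reticulum stress protein, had 370 and 369 TPM in the K lines, against 240 and 271 TPM in the intact lines in control cells. Atf6, a stress sensor, stood the other way, at 29.0 and 30.0 TPM in the K lines, against 58.8 and 42.8 TPM in the intact lines.

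Early-response and signalling genes were divided. Egr2, a zinc-finger factor, had 2.08 and 3.58 TPM in the K lines, against 9.44 and 13.6 TPM in the intact lines. Spry1, an inhibitor of growth factor signalling on chromosome 3, had 2.85 and 6.90 TPM in the K lines, against 13.7 and 20.4 TPM in the intact lines. Lef1, a transcription factor of Wnt signalling also on chromosome 3, had 6.04 and 16.1 TPM in the K lines, against 47.1 and 52.4 TPM in the intact lines. These 3 remained past 2-fold with TGFβ. Dusp5, a phosphatase of ERK, had 21.3 and 20.3 TPM in the K lines, against 4.22 and 7.41 TPM in the intact lines, and Ereg, the EGF receptor ligand epiregulin, had 16.5 and 21.8 TPM in the K lines, against 5.61 and 5.89 TPM in the intact lines. Both kept their direction with TGFβ but not 2-fold.

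Set on the scale between the mean of the intact lines and that of the K lines, the Vector line lay nearer the K lines for 56 of the 65 higher genes (86.2%) and 152 of the 182 lower genes (83.5%), beside 70.1% of all 5766 genes of 1 direction. With TGFβ it did so for 56 and 142. The mean of the R314A-CREB and S133A/R314A-CREB lines lay nearer the K lines for 48 and 131, beside 56.7% of the 5766. For most of these genes, therefore, WT-CREB and S133A-CREB were the lines that stood away from Vector. Among the exceptions, where Vector lay nearer the intact lines, were Antxr1, Mir703 and Ndufs5 of the higher genes and Xlr, Gbp2, Lamb3, Oas3 and the glutathione transferase gene Gstm2 of the lower ones. Gstm2 had 89.8 and 132 TPM in the K lines, against 185 and 276 TPM in the intact lines and 278 TPM in Vector. Vector is 1 library per treatment, so this position has no replicate.

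Whole chromosomes differed between the lines. The 506 genes of chromosome 3 had median differences of -0.34 in the KCREB pair and -0.54 in the S133A-KCREB pair, and of -0.30 and -0.53 with TGFβ. There 351 genes (69.4%) were lower in both pairs and 22 (4.35%) higher, and 21 were past 2-fold lower and 0 higher. Chromosome 15 had pair medians of -0.36 and -0.27, with 62.9% of 418 genes lower in both pairs, and chromosome 13 had 0.11 and 0.32, with 45.9% of 377 higher in both. Against Vector, the chromosome 3 median was -0.08 in KCREB and -0.45 in S133A-KCREB, and 0.27 in WT-CREB and 0.11 in S133A-CREB. On chromosomes 1 and 5, KCREB had -0.03 and -0.05, and S133A-CREB had 0.10 and 0.11. Chromosome 3 thus stood apart in WT-CREB of the first pair and S133A-KCREB of the second, more than in their partners. DNA copy number was not measured, and its part in these differences was not tested. After each difference was centred on the median of its chromosome, an alternative added after the data were seen, 63 genes were past 2-fold higher and 156 lower, and 204 of the 247 were among them. On chromosome 3, 12 of the 21 lower genes remained so, on chromosome 15, 6 of 11, and on chromosome 13, 7 of 10 higher genes. Genes named above that lie on chromosome 3 are Adh7, P2ry14, Crtc2, Prkacb, Pkia, Pde7a, Notch2, Gbp2, Gbp3, Vcam1, Spry1, Lef1 and Gstm2. Those on chromosome 13 include the higher genes Tfap2a, Inhba, Tmem171 and Ccnb1. Those on chromosome 15 include the lower genes Atf1, Klf10 and Ncf4 and the higher gene Slurp1. After centring, lens regulators past 2-fold higher numbered 0 in place of 1, and SMAD targets past 2-fold lower 2 in place of 3.

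**Figure D5:**
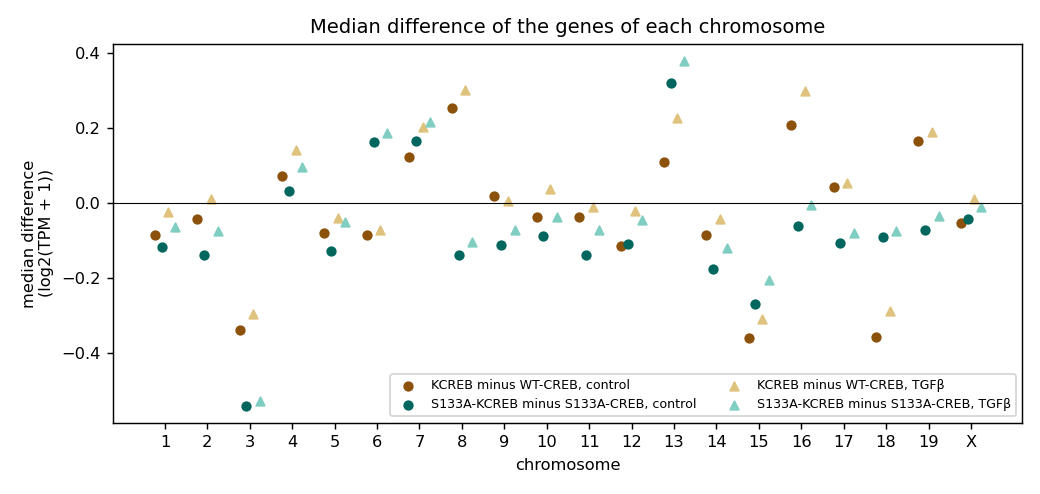
Median difference in log2(TPM + 1) of the genes at a mean of at least 5 TPM on each chromosome, for the KCREB pair and the S133A-KCREB pair in control libraries (circles) and TGFβ libraries (triangles). Chromosomes 3 and 15 lie below 0 in both pairs, chromosome 13 lies above 0 in both, and chromosome 18 is low in the KCREB pair only, with the same pattern in both treatments.

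At the edge of the expression threshold, Pgap1 and Ror1 were just inside a mean of 5 TPM and Serpina3g and Mndal just outside. Ror1 had 7.51 and 6.25 TPM in the K lines, against 2.96 and 3.32 TPM in the intact lines. Mndal had 1.45 and 3.35 TPM in the K lines, against 7.36 and 7.74 TPM in the intact lines.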

How the data were processed

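RNA-seq libraries of 14 cultures were used, 1 control and 1 TGFβ library from each of 7 lines, grouped by their titles. The growth protocol in the labels names neither K line. Per the submitters' processing notes, GRCm39, STAR 2.7.6a, StringTie 2.0.4 and edgeR were named, with no roles. The deposited tables hold TPM as computed by the authors, which sums to 1000000 per library, and FPKM and per-base coverage, also deposited by the authors per the file headers. Without read counts, depth was judged from coverage only and no counting interval is given, and a value of 0 may be a failed estimate. Neither strandedness nor annotation is given in the sources used here.

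Differences are in log2(TPM + 1), which understates changes of low genes. A gene entered the pairs at 5 TPM or more on average in the 4 control libraries, and 2-fold means a difference of at least 1. Testing covered genes averaging 1 TPM or more in the 14 libraries. It used limma (3.58.1, R 4.3.3) on 6 libraries per fit, a variance trend with intensity and Benjamini-Hochberg adjustment over all genes. The fit assumes that S133A acts alike in all zipper states. All p-values are two-sided. They rest on the spread between lines that the S133 and zipper terms leave, with 2 residual degrees of freedom per gene. No construct has replicate lines, so this spread is not that between lines of the same construct. The control pairs that chose the genes also enter it, so control SEs of chosen genes are not an independent measure. Every line is its own culture, so a property of a line cannot be told apart from its construct. The fit was tested on simulated data.

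The members and the 37 gene lists were chosen with earlier results of these data known. Named were Creb1, Crem and Atf1, the 12 highest and 12 lowest genes by the smaller pair difference (predicted genes passed over), up to 4 members of each list, up to 5 genes per direction with the least difference left with TGFβ, and the genes next to the 5 TPM threshold. Where a list has no example, its named members were left out for length. The alternatives were pseudocounts of 0.1 and 5, other filters and scalings, FPKM, fits without trend, without the S133 term, with 4 lines or with line means, and leaving out each library. Centring on chromosome medians was added after the data were seen.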

Additional observations from a re-analysis of the deposited data

Results flagged for a closer look

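In control cells 111 genes were past 2-fold in both pairs but in opposite directions, so the K minus intact difference was not alike in the 2 pairs. The part of the S133 state cannot be told apart from that of single lines. With 1 library on each side the difference between the pairs was not tested. Of the 111, 78 were higher in KCREB than in WT-CREB and lower in S133A-KCREB than in S133A-CREB, 33 were the reverse, and 101 had the same signs in both TGFβ pairs. The genes named next were chosen after their values were seen. Cdkn1a, the p53 target p21, had 5.91 TPM in KCREB and 171 TPM in S133A-KCREB, against 48.9 TPM in WT-CREB and 16.5 TPM in S133A-CREB. Gatm, an enzyme of creatine synthesis, had 0.871 and 34.4 TPM in the K lines, against 37.1 and 0.128 TPM in the intact lines. Tap1, a peptide transporter of antigen presentation, had 30.6 and 5.8 TPM in the K lines, against 4.84 and 32.9 TPM in the intact lines. The basement membrane gene Nid1 had 86.1 and 3.06 TPM, against 18.1 and 55.4 TPM in the intact lines.

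Ndufs5, a subunit of complex I on chromosome 4, was the one 2-fold gene with the opposite direction in both TGFβ pairs. It had 43.0 and 30.6 TPM in the K control libraries, against 13.7 and 12.7 TPM in the intact ones, and 13.7 and 15.2 TPM with TGFβ in the K lines, against 24.0 and 17.2 TPM in the intact lines. The mean difference was 1.39 in control cells and -0.47 with TGFβ. The limma test of the difference between the treatments gave an unadjusted p of 0.00069 and an adjusted p of 0.278, with control values that had chosen the gene.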

How the results depend on the processing

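With a pseudocount of 5 in place of 1, 34 genes were past 2-fold higher, 107 lower and 69 remained so with TGFβ, and with FPKM in place of TPM these counts were 34, 84 and 50. FPKM values are lower than TPM here, so the same pseudocount and threshold weigh more. The other alternatives kept these counts over all genes within 1.5 times. Small counts of single lists moved further: p53 targets higher in both pairs numbered 6 in place of 3 after median-of-ratios scaling, SMAD targets higher in both numbered 3 in place of 1 without mitochondrially encoded genes, and the interferon genes past 2-fold lower numbered 2 in place of 4 with a pseudocount of 5. Without an intensity trend the TGFβ fit called 1 gene, Inhbb, and the fit of the change with TGFβ called 15 genes from the 4 K and intact lines alone. Leaving out 1 library of these lines gave 0 to 8 calls in control cells, 0 to 144 with TGFβ and 0 for the change with TGFβ. Of the named differences, 39 single-gene results, all but 1 of them from leaving out a library, passed an adjusted p of 0.05 under an alternative. The direction turned only when a library was left out. With TGFβ the differences then spanned -0.50 to 1.83 for Slurp1, -0.98 to 0.35 for Mir703, -2.32 to 0.29 for Col3a1, -0.0028 to 1.63 for Lmcd1, -0.10 to 0.31 for Pdzrn3, -0.22 to 0.37 for Pet100, -0.50 to 1.08 for Septin4, -0.65 to 0.073 for Cryaa, -1.38 to 0.46 for Inhba, -0.092 to 0.75 for Akap12, -0.44 to 0.16 for Pmepa1 and -0.073 to 0.86 for Serpina3g. In control cells they spanned -0.96 to 0.29 for Cryaa and -0.20 to 2.33 for Serpina3g. The cause was not tested. No paired analysis was possible between K and intact lines because each line has 1 library per treatment and the labels give no replicate numbers. The S133 state is a term of the fit, and the fit of the change with TGFβ compares treatments within each line. With 1 library per line, the values carry no error of culture or library preparation, and genes near 5 TPM have the least precise differences.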

Other observations

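Among genes of retinoid and aldehyde metabolism, 6 of 15 at 5 TPM were lower and 2 higher in both control pairs, the lower share near the 32.7% of all genes, with pair medians of 0.17 and -0.56. Crabp2, which carries retinoic acid in the cell, had 1.18 and 2.74 TPM in KCREB and S133A-KCREB, against 15.7 and 17.1 TPM in WT-CREB and S133A-CREB, and Vector had 0.784 TPM. Akr1b8, an aldo-keto reductase, had 0.667 and 56.5 TPM in the K lines, against 156 and 154 TPM in the intact lines. Both remained past 2-fold with TGFβ. Akr1b genes have close relatives, and Crabp2 is on chromosome 3. The corneal crystallin and aldehyde dehydrogenase Aldh3a1 had 275 and 813 TPM in the K lines, against 2276 and 1198 TPM in the intact lines, and with TGFβ 168 and 96.9 TPM, against 944 and 391 TPM in the intact lines.

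Transcripts of some respiratory chain subunits were at higher levels in both K lines in control cells, and the difference between the treatments was not tested for the list. Ndufa1, a subunit of complex I, had 345 and 197 TPM in the K control libraries, against 119 and 140 TPM in the intact ones, and with TGFβ 121 and 106 TPM in the K lines, against 135 and 119 TPM in the intact lines. Cox5b, a subunit of complex IV, had 300.5 and 284 TPM in the K control libraries, against 209 and 227 TPM in the intact ones, and with TGFβ 217 and 218 TPM in the K lines, against 227 and 236 TPM in the intact lines. Of the 24 nuclear-encoded respiratory chain genes, 12 were higher and 3 lower in both control pairs, beside 21.9% and 32.7% of all genes. In both TGFβ pairs 6 were higher and 10 lower, beside 28.8% and 29.1% of all genes.

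Imprinted and X-linked genes varied by line. Rhox5, an X-linked homeobox gene, had 3.98 TPM in KCREB and 336 TPM in S133A-KCREB, against 678 and 425 TPM in the intact lines. Sgce, an imprinted gene, was listed at 0 in S133A-KCREB and in S133A/R314A-CREB in both treatments and had 18.7 TPM in KCREB, against 21.0 and 22.4 TPM in the intact lines.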
